A study of Mus musculus with 2 samples.

Results

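The microRNA genes Mir7-1, Mir7-2, Mir7b and Mir671, whose products are known to pair with the circular RNA Cdr1as, were described in small RNA libraries of mouse cortex. They were taken by GENCODE gene name, and all 4 were found among the 2202 microRNA genes of each count table. The tissue was left cerebral cortex of B6CASTF1/J females, a hybrid of a C57BL/6 and a CAST parent, at an age of 36 days. No treatment or altered allele was named for either of the 2 animals, which carry the same donor code but separate animal and replicate numbers, so the design holds 1 group with n = 2 and no comparison of conditions.

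MicroRNAs are cut from hairpin precursors, and either side of the hairpin can give a mature strand, called the 5p or the 3p arm. The strand that is kept guides Argonaute proteins to RNAs that pair with its bases 2 to 8, the seed. miR-7 is an old, conserved microRNA known from neurons and from endocrine cells of the pancreas and pituitary. Cdr1as is a neuronal circular RNA known for its many matches to the miR-7 seed, and miR-671 is known to pair with it along nearly its whole length and to direct its cleavage.

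The mature arms are shown because they decide which reads can be given to which gene and which matches Cdr1as holds. They are from RefSeq on build GRCm38.p6, where all 4 hairpins were found at the coordinates of the annotation, and capitals mark the seed.
miR-7a-5p, of both Mir7-1 and Mir7-2: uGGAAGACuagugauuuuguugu
miR-7b-5p, of Mir7b: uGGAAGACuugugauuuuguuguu
miR-7a-1-3p, of Mir7-1: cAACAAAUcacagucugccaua
miR-7a-2-3p, of Mir7-2: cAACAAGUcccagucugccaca
miR-7b-3p, of Mir7b: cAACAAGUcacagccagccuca
miR-671-5p, of Mir671: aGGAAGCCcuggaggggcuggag
miR-671-3p, of Mir671: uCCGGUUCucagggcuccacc

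The 5p arms of the 3 Mir7 genes share the seed GGAAGAC, and no gene outside the family in the RefSeq table has it. miR-7a-5p was identical in Mir7-1 and Mir7-2. miR-7b-5p differed from it by A10U, counted from the 5′ end with the miR-7a base first, and is 1 base longer. The 3p arms differed more, by 3 bases of 22 between Mir7-1 and Mir7-2, by 5 between Mir7-1 and Mir7b and by 4 between Mir7-2 and Mir7b. On the 3p side Mir7-2 and Mir7b share the seed AACAAGU, while Mir7-1 has AACAAAU through the change A7G (Mir7-1 base first). Neither seed of Mir671 was found in another gene of the table.

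Mir7-1 and Mir7-2 had a run of 24 bases in common, which covers the whole of miR-7a-5p and 1 base after it. Mir7b had at most 14 bases in a row in common with either of them. Of the 18-base windows of each hairpin, 7 of 80 in Mir7-2 and 7 of 91 in Mir7-1 were also found in another of the 2202 annotated hairpins, all of them within that run. None of the 94 windows of Mir7b and none of the 81 of Mir671 was. Reads with several places in the genome were listed apart, under no gene, and they were 51.2% of mapped reads in mouse 2 and 50.9% in mouse 1. Reads of miR-7a-5p that lie within the shared run fit both hairpins. Such reads would be listed under no gene and so be missing from the counts of Mir7-1 and Mir7-2. Their number is not held in these tables, and the loss was not tested. Where it took place, the levels of the pair are what was left to reads that tell them apart.

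**Figure D1:**
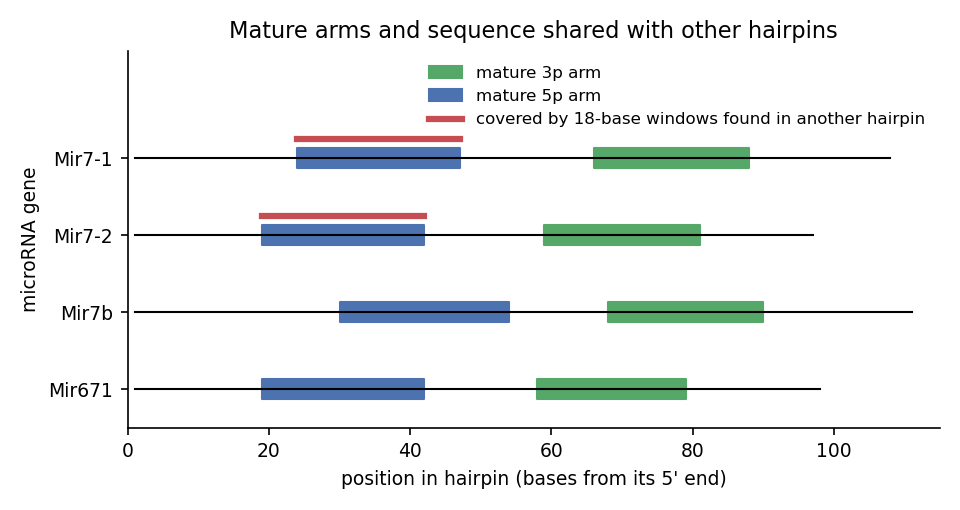
The 4 hairpins are drawn to scale from their 5′ end, in bases, with the mature 5p arm in blue, the 3p arm in green and, in red, the stretch covered by 18-base windows that another annotated hairpin also holds. The red stretch covers the 5p arm of Mir7-1 and Mir7-2, and Mir7b and Mir671 have none.

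The genes lie on different chromosomes of the mm10 assembly (GRCm38). Mir7-1 (ENSMUSG00000065434.1, chr13:58392779-58392886, minus strand) lies in an intron of Hnrnpk, which encodes a nuclear RNA-binding protein. Mir7-2 (ENSMUSG00000065609.1, chr7:78888277-78888373, plus strand) lies in no annotated gene, and the nearest one, Aen, an exonuclease gene, is 7481 bases away. Mir7b (ENSMUSG00000065491.1, chr17:56242988-56243098, plus strand) also lies in no annotated gene, 183 bases from the non-coding RNA gene AC026385.1 on the same strand. Mir671 (ENSMUSG00000076387.1, chr5:24592114-24592211, plus strand) lies wholly inside coding sequence of Chpf2, a gene of chondroitin synthesis, in both annotated transcripts that hold it. On the opposite strand it also overlaps an exon of Smarcd3, a chromatin remodelling gene. Each member is the only microRNA gene at its place: the nearest others were 70863 bases (Mir7b), 79630 bases (Mir7-1), 576161 bases (Mir671) and 616891 bases (Mir7-2) away, and of these only Mir9-3, beside Mir7-2, had counts.

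The libraries held 1863876 (mouse 2) and 1930234 (mouse 1) counts on the sense strand of microRNA genes. Levels are given as CPM, the counts of a gene for every 1000000 of these. A count of 0 allows as many as 3 counts, or 1.61 CPM (mouse 2) and 1.55 CPM (mouse 1). Markers of cortical neurons were present, with 10 of 14 genes at 10 CPM or more in both mice and summed levels of 195690 CPM (mouse 2) and 195344 CPM (mouse 1). Within that sum Mir132 had 64860 CPM (mouse 2) and 29894 CPM (mouse 1), and Mir139 had 92535 CPM (mouse 2) and 132003 CPM (mouse 1), so its members differed in opposite directions. The 4 genes below 10 CPM were all 3 copies of Mir124a and Mir9-2. Mir124a and Mir9 each have several gene copies, and reads with several places in the genome were under no gene. The number of such reads from these copies was not tested, so their low counts do not show that the mature microRNAs are scarce. Mir375, which marks the pituitary and pancreatic islets, other tissues known for miR-7, had a level of 170.1 CPM (mouse 2) and 251 CPM (mouse 1). The liver gene Mir122 had 40.2 CPM (mouse 2) and 45.6 CPM (mouse 1). The 2 red blood cell genes had sums of 128 CPM (mouse 2) and 712 CPM (mouse 1), the 2 choroid plexus genes of 630.4 CPM (mouse 2) and 587 CPM (mouse 1), and the 6 muscle genes of 25.8 CPM (mouse 2) and 38.3 CPM (mouse 1). Of these muscle genes Mir206 had 25.2 CPM (mouse 2) and 38.3 CPM (mouse 1), and 4 had 0 counts in both mice. The part of such RNA in the levels below was not tested, and in bulk tissue fewer cells of a type and less RNA per cell cannot be told apart.

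In the reads that could be counted, Mir671 and Mir7b stood far above Mir7-2 and Mir7-1. Reads of miR-7a-5p may be missing from the counts of Mir7-2 and Mir7-1. This order and the ranks below therefore need not be those of the mature microRNAs. All 4 genes were detected, meaning at 10 CPM or more in both mice, which 304 of the 2202 genes (13.8%) were. Together they held 0.350% of sense counts in mouse 2 (6529 counts) and 0.332% in mouse 1 (6414 counts), so their sum differed little while its make-up did not stay the same. For each gene the level is followed by its mean ± SD over n = 2 mice.

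Mir671 had 2647 counts (1420 CPM) in mouse 2 and 3955 counts (2049 CPM) in mouse 1. At 1735 ± 445 CPM it ranked 78 of all genes by mean level. It was the highest of the 4 in mouse 1 but not in mouse 2.

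Mir7b had 3665 counts (1966 CPM) in mouse 2 and 2232 counts (1156 CPM) in mouse 1. Its mean of 1561 ± 573 CPM gave rank 85, and the ranges of Mir7b and Mir671 overlapped. The order of these top genes turned round between the animals: in counts Mir7b was 1.38 times Mir671 in mouse 2 (95% Clopper-Pearson counting interval 1.32 to 1.46) and 0.564 times in mouse 1 (0.536 to 0.595). Per base of hairpin the ratios of levels were 1.22 and 0.498, with the same turn.

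Mir7-2 had 108 counts (57.9 CPM) in mouse 2 and 153 counts (79.3 CPM) in mouse 1. Its mean was 68.6 ± 15.1 CPM, at rank 226. It is one of the loci that give miR-7a-5p.

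Mir7-1, the locus inside Hnrnpk, had 109 counts (58.5 CPM) in mouse 2 and 74 counts (38.3 CPM) in mouse 1. Its mean was 48.4 ± 14.2 CPM, at rank 240. The ranges of Mir7-2 and Mir7-1 overlapped, since the values were nearly equal in mouse 2 and Mir7-2 was higher in mouse 1. Neither range overlapped that of Mir7b or Mir671. With 2 values a gene no permutation test could pass 0.05, so these orders are descriptions.

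**Figure D2:**
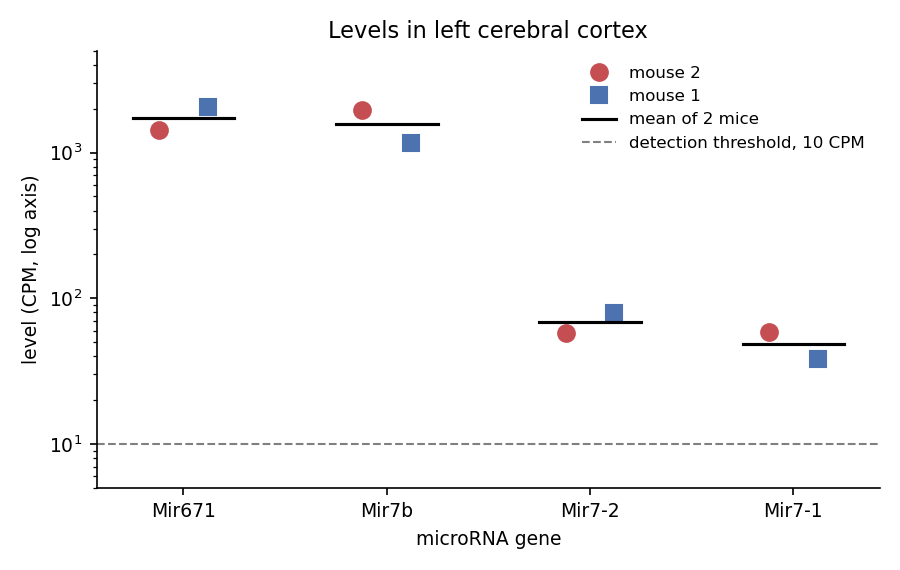
Levels in CPM on a log axis are shown for the 4 genes, with a red circle for mouse 2, a blue square for mouse 1, a black line for their mean and a dashed line at 10 CPM. Mir671 and Mir7b lie between 1156 and 2049 CPM and change places between the mice, and Mir7-2 and Mir7-1 lie between 38.3 and 79.3 CPM.

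Within the family nearly all counts were of Mir7b. It held 94.4% of the counts of the 3 Mir7 genes in mouse 2 (interval 93.6 to 95.1) and 90.8% in mouse 1 (89.6 to 91.9), or 92.6% ± 2.57 on average. Mir7b was 33.9 times Mir7-2 in mouse 2 and 14.6 times in mouse 1, and per base of hairpin 29.7 and 12.7 times. Against Mir7-1 it was 33.6 times higher in mouse 2 and 30.2 times in mouse 1, per base 32.7 and 29.3 times. Because any missing reads of miR-7a-5p would belong to Mir7-1 and Mir7-2 alone, these ratios compare what could be counted and not the amounts of mature miR-7a and miR-7b.

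Among the reads that could be counted, the balance of the 2 loci of miR-7a also differed between the mice. Of the counts of Mir7-1 and Mir7-2 together, Mir7-1 held 50.2% in mouse 2 (109 of 217, interval 43.4 to 57.1) and 32.6% in mouse 1 (74 of 227, interval 26.5 to 39.1). These intervals, which cover counting error only, did not overlap. The shares are of raw counts, without the correction for GC content given below. The 3 Mir7 genes as a whole made up 0.208% of the sense total in mouse 2 and 0.127% in mouse 1. Of the counts of all 4 genes Mir671 held 40.5% in mouse 2 (interval 39.3 to 41.7) and 61.7% in mouse 1 (60.5 to 62.9).

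**Figure D3:**
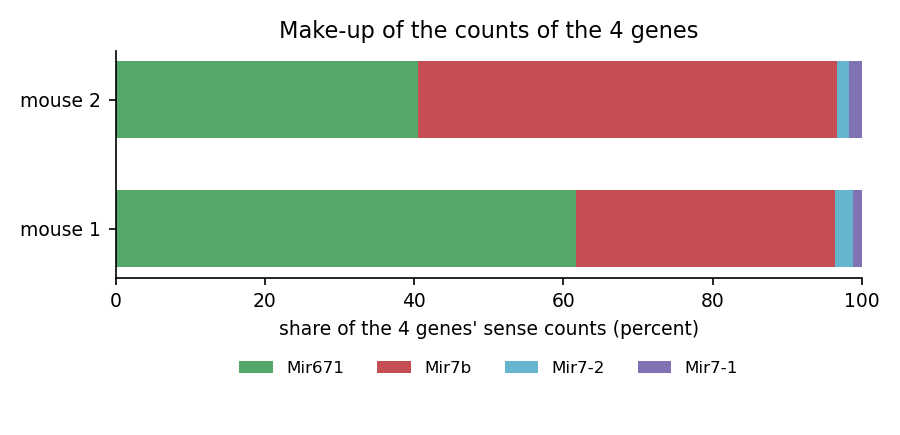
The bars show the share of the sense counts of the 4 genes, in percent, that each gene took in mouse 2 (above) and mouse 1 (below). Mir7b took 56.1% in mouse 2 and 34.8% in mouse 1, Mir671 took 40.5% in mouse 2 and 61.7% in mouse 1, and Mir7-2 and Mir7-1 took the small remainder.

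Between the mice, Mir7b and Mir7-1 were higher in mouse 2 and Mir671 and Mir7-2 were lower in mouse 2, all by less than 2-fold. Log2 ratios of mouse 2 over mouse 1 were taken on TMM-scaled libraries, and each pair of counts was set against an exact binomial test adjusted by Benjamini-Hochberg over the 324 genes whose mean level reached 10 CPM. That test compares 2 libraries for counting error and says nothing of a condition. The log2 ratio was 0.72 for Mir7b (95% interval 0.64 to 0.79, exact test adjusted p = 3.51e-78) and −0.58 for Mir671 (−0.65 to −0.51, exact test adjusted p = 1.59e-57). On fewer counts it was 0.56 for Mir7-1 (0.12 to 1.01, exact test adjusted p = 0.0140) and −0.50 for Mir7-2 (−0.87 to −0.14, exact test adjusted p = 0.00949). Within this pair of libraries the family held both signs, and Mir7-2 had the sign of Mir671. Both signs were common among all genes tested, with 38% higher and 36.7% lower in mouse 2 by the exact test at any fold.

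These differences were of ordinary size for this pair of libraries. All 4 members passed the adjusted exact test at any fold, but so did 74.7% of the genes tested. The 2 that were higher in mouse 2 stand beside 38% of tested genes, and the 2 that were lower beside 36.7%. None of the 4 passed both the test and 2-fold, against 19.4% of the genes tested (14.2% higher and 5.25% lower in mouse 2). The median absolute log2 ratio over the 324 genes was 0.53, or 1.44-fold. Mir7b, 1.64-fold apart, lay above 63.6% of them, Mir671 (1.49-fold) above 54.3%, Mir7-1 (1.48-fold) above 53.1% and Mir7-2 (1.41-fold) above 47.2%. Each mouse gave 1 library, so differences between animals and between library preparations cannot be told apart. After the log2 ratios were corrected for a linear trend with the GC content of the hairpin, Mir7-1 no longer passed (log2 ratio 0.35, exact test adjusted p = 0.153). The range of its adjusted p over the other alternatives was 0.00754 to 0.0302.

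**Figure D4:**
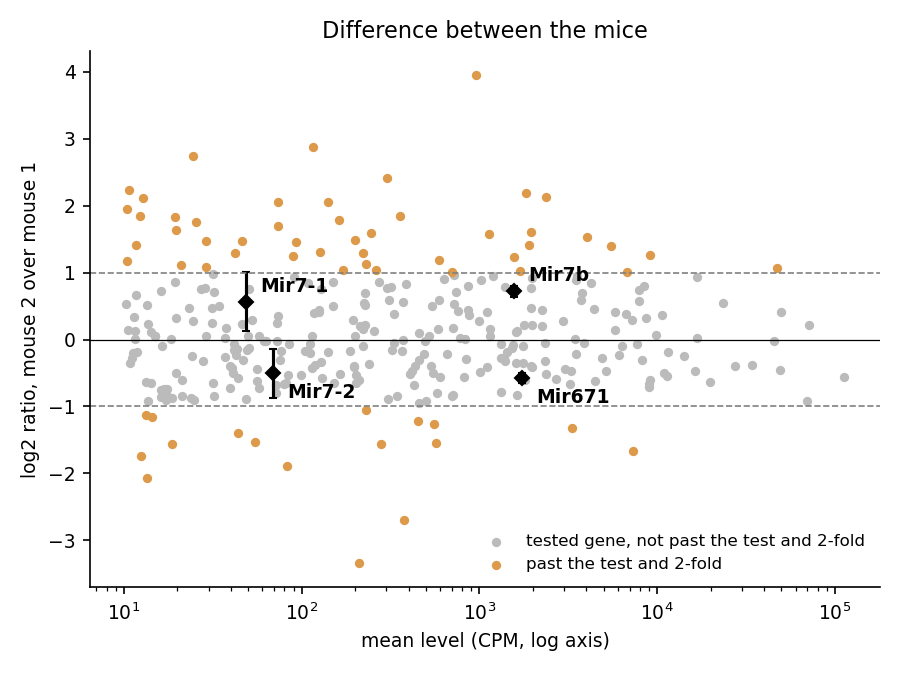
Each point is 1 of 324 genes, with its mean level in CPM (log axis) across and its log2 ratio of mouse 2 over mouse 1 up the page. Black diamonds with 95% counting intervals are the 4 genes, orange points passed the exact test and 2-fold, and dashed lines mark 2-fold. All 4 diamonds lie inside the dashed lines, from −0.58 to 0.72.

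The genes next in rank give a scale for these levels. Mir185 (1717 CPM in mouse 2 and 1778 CPM in mouse 1) stood just above Mir671 and Mir27b (2307 and 1096 CPM) just below it, and beyond them came Mir195a (1581 and 1950 CPM) and Mir1839 (1735 and 1538 CPM). Mir7b stood below Mir337 (1436 and 1780 CPM) and Mir376a (2228 and 917 CPM) and above Mir667 (1520 and 1554 CPM) and Mir323 (1483 and 1567 CPM). Mir7-2 stood below Mir483 (53.7 and 90.7 CPM) and Mir7047 (56.3 and 87.6 CPM) and above Mir214 (63.8 and 62.7 CPM) and Mir6944 (62.2 and 61.1 CPM). Mir7-1 stood below Mir542 (47.8 and 51.3 CPM) and Mir344b (34.9 and 62.7 CPM) and above Mir679 (42.4 and 50.8 CPM) and Mir190a (68.7 and 23.8 CPM). The range of each of these 16 genes overlapped that of its member. They were picked as nearest in mean level, so this overlap followed from the choice and is no evidence. The ranks of the 4 did differ between the mice. They were 90 in mouse 2 and 66 in mouse 1 for Mir671, and 73 and 89 for Mir7b. For Mir7-2 they were 230 and 213, and for Mir7-1 229 and 250.

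The other partner, Cdr1as, is too long for these libraries and its level was not analysed here, but its sequence can be set beside the microRNAs. RefSeq gives Cdr1as as a synonym of the gene annotated as C230004F18Rik, and the exon of that gene opposite the gene Cdr1 (chrX:61183248-61186174, plus strand) is known as the stretch that forms the circle. It is 2927 bases long and was read from GENCODE transcript C230004F18Rik-206. The letters complementary to the miR-7 5p seed, GTCTTCC, occurred 123 times in it, which is 4.20 per 100 bases. On the opposite strand they occurred 0 times. In 34 of the 123 an A follows, giving the longer match GTCTTCCA, and 16 further places held the 6 letters TCTTCC without the G before them, 7 of these with the A after them. For scale, the first 2927 bases were taken from the longest transcript of each other gene that reached this length. Of these 12721 stretches, 24.2% held GTCTTCC at all (31.1% on the opposite strand) and the highest count in any was 4. A match is a string of letters and not a measured contact.

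The matches were most evenly spaced in the middle of the exon, and the longer ones lay mostly near its 5′ end. The median distance between neighbouring 7-letter matches was 18 bases (range 17 to 109), and 86 of the 122 distances were exactly 18. Within the second 1000 bases this held for 50 of 52, and the other 2 were 36 bases. It held for 36 of the remaining 70. Of the 8-letter matches 29 lay within the first 1000 bases, 1 in the next 1000 and 4 after them. Of the 7-letter matches without the A, 16, 52 and 21 lay in those stretches.

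miR-7a-5p and miR-7b-5p have the same seed and so the same matches, but the base in which they differ faces the exon unequally. Opposite arm position 10 the exon held A, which pairs with the U of miR-7b-5p, at 102 of the 123 matches (82.9%). It held T, which pairs with the A of miR-7a-5p, at 2 (1.63%). At 19 it held G or C, which form no Watson-Crick pair with either. Over the whole arm without gaps, miR-7b-5p had a median of 14 Watson-Crick pairs of 24 at the 123 matches (range 9 to 17) and miR-7a-5p 13 of 23 (8 to 16). The best place for both ends at the same base, and it is shown for miR-7b-5p with the paired letters in capitals and Cdr1as written 5′ to 3′.
Cdr1as facing miR-7b-5p, chrX:61183570-61183593: ttCcAgAAAAatcCAAGTCTTCCA

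miR-671-5p paired longest near the 3′ end of the exon. Its best place had 19 Watson-Crick pairs of 23 and 2 G:U pairs, against 17 at the second best and a median of 6 over 2905 positions of the exon. It lay at bases 2782 to 2804. The letters complementary to its seed, GGCTTCC, occurred 1 time in the exon, at this place, and 28.9% of the 12721 other stretches held them (32.3% on the opposite strand). They share their last 5 letters, CTTCC, with the miR-7 match and differ from it at the second letter.
Cdr1as facing miR-671-5p, chrX:61186029-61186051: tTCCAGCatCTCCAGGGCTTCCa

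The 3p arms had no seed match on the sense strand of the exon. This was so for GAACCGG of miR-671-3p, ATTTGTT of miR-7a-1-3p and ACTTGTT of miR-7a-2-3p and miR-7b-3p, which also had 0 on the opposite strand. Of the other stretches 8.07%, 23.2% and 16.6% held these letters (6.44%, 23.2% and 18.5% on the opposite strand). No match says only that the letters are not in this exon.

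**Figure D5:**
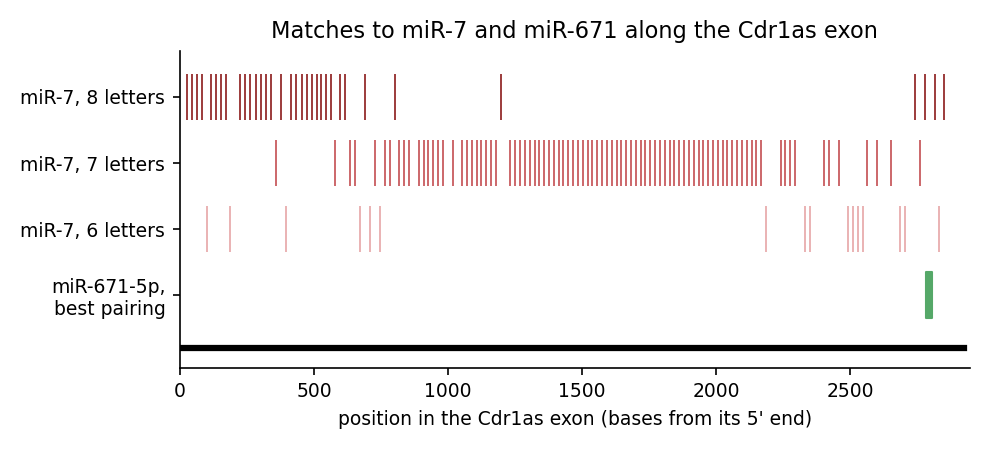
Position along the Cdr1as exon, in bases from its 5′ end, runs across, and each vertical line is a match to the miR-7 5p seed with 8 letters (GTCTTCCA), 7 letters (GTCTTCC without the A) or 6 letters (TCTTCC without the G, whether or not the A follows); the green bar is the place where miR-671-5p pairs best. The 8-letter matches crowd the first 1000 bases, the 7-letter matches form an even comb in the middle and the miR-671-5p place lies near the end, at bases 2782 to 2804.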

How the data were processed

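Small RNA was sequenced from 2 mice of 1 group, per the labels. The deposited values are raw read counts per microRNA gene on mm10 with GENCODE M21, per the submitters' README notes; the sources used here do not state the aligner, the counter or the trimming. The 3 unnamed count columns were read as unstranded, sense and antisense from their values, and the sense column was used. Lines that name no gene (unmapped, several places, no feature) held 70.2% of reads in mouse 2 and 72.7% in mouse 1 and were left out of library sizes. Counts are per gene and cannot tell the arms of a hairpin apart. A mature microRNA read spans most of its arm, so CPM was not divided by length except where stated. PCR copies count as reads, so intervals and floors cover counting error only.

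edgeR 4.0.16 gave TMM factors and, from an intercept-only design over 324 genes, a common biological coefficient of variation of 0.399; DESeq2 1.42.0 gave alternative size factors. Exact binomial tests and Clopper-Pearson intervals used scipy 1.17.1, with thresholds of 0.05 and 2-fold. The test was checked on simulated counts that held set folds and counting error only. That check does not cover further variation between libraries. Genes named are the 4 members, the 2 next above and below each in mean CPM, sharers of a seed, the nearest microRNA genes and marker genes. Members and lists were chosen with earlier results of these data known. Only annotated hairpins and transcripts were searched, since no genome sequence was used here. Loss of reads from CAST alleles on mm10 was not tested.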

Additional observations from a re-analysis of the deposited data

How the results depend on the processing

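Over 14 results and 73 alternatives no direction reversed, and 61 alternatives left a result within its replicate spread or on the same side of its threshold. No paired analysis was possible because the labels give 1 group only. Scaling the levels to the counts without the 10 most abundant genes gave mean levels of 3724 CPM for Mir671, 3299 CPM for Mir7b, 147.2 CPM for Mir7-2 and 102 CPM for Mir7-1. Scaling them to all reads of the library gave 491, 451, 19.4 and 13.9 CPM. Both follow from the changed denominator. At a threshold of 100 CPM, 2 members counted as detected in place of 4. At a fold threshold of 1.5, 138 of 324 genes passed in place of 63, and 1 member, Mir7b, in place of 0. The log2 ratio of mouse 2 over mouse 1 ran over the alternatives from 0.62 to 0.77 for Mir7b, from −0.58 to −0.34 for Mir671, from 0.35 to 0.61 for Mir7-1 and from −0.51 to −0.45 for Mir7-2. The values nearest 0 for Mir7b, Mir671 and Mir7-1 came with the linear GC trend removed, a step planned for the log2 ratios. Only for the counts of genes was this step added after the data were seen. With the trend removed Mir7-1, at 0.35, no longer passed the exact test (adjusted p = 0.153), and the cause was not tested. For the levels and shares, leaving out either mouse gave the value of the other. With n = 2 that value always lies within the SD, so these alternatives, which are among the 61, could not come out as moved. Depth limits Mir7-1 and Mir7-2 most, at 74 to 153 counts a library.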

Other observations

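Mir7-1 and Mir7-2 belong to a group of genes that share one mature arm with another hairpin and keep the other to themselves. Of 1018 genes of the tables with a mature arm in the RefSeq table, 61 had some but not every arm in another annotated hairpin, and 34 of these (55.7%) were at 10 CPM or more in both mice. Of 904 genes with no shared arm 236 (26.1%) were, and of 53 genes with every arm shared 6 (11.3%) were. Among the 34, Mir7-2 and Mir7-1 came in places 24 and 25 by mean level, far below Mir128-1 (16730 CPM), Mir138-1 (4386 CPM) and Mir128-2 (3505 CPM), which lead the group. The median of the 34 was 128 CPM, that of the 236 was 372 CPM and that of the 6 with every arm shared was 458 CPM.

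Over 1398 distinct seeds of the RefSeq table, that of miR-7 had the most matches in the Cdr1as exon, and 1327 seeds (94.9%) had none. The next were those of miR-7074-5p with 74 matches, miR-7685-3p with 56, a seed shared by miR-3547-5p and 3 other arms with 53, and one shared by miR-204-3p and miR-7684-5p with 43. Of these matches 74, 54, 51 and 42 overlapped the letters TCTTCC of a miR-7 match. Mir7074 had 0 counts in both mice, and the gene Mir204 stood at 492 CPM on average, below Mir7b. That level is of the whole hairpin, so the level of miR-204-3p is not known from it.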
